A study of Mus musculus with 24 samples.

Results

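The Toll-like receptors that sit at the cell surface, with the co-receptors they need, were followed across 2 subsets of mouse splenic conventional dendritic cells. The set was a list of 8 genes chosen by name, namely Tlr1, Tlr2, Tlr6, Tlr4, Ly96, Cd14, Cd180 and Tlr5. All 8 were among the 24421 gene symbols in the count files, and all 8 were among the 13166 that passed the low-count filter.

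RNA was sequenced from cDC1 and cDC2 sorted from spleens of untreated C57Bl/6 mice aged 6 to 12 weeks. The transgene cDCs came from CD11cCRE x R26-Zeb2Tg/Tg mice, in which Cre recombinase under CD11c control switches on a Zeb2 transgene at the Rosa26 locus, and their controls from Cre-negative R26-Zeb2Tg/Tg mice. The deletion cDCs came from CD11cCRE x Zeb2fl/fl mice, in which the same Cre removes a floxed part of Zeb2, and their controls from Cre-negative Zeb2fl/fl mice. Each subset and line had 4 Cre-positive and 2 Cre-negative libraries, 24 in 8 groups. CD11c, the product of Itgax, is carried by both subsets and also by some macrophages and monocyte-derived cells, so Cre can act outside cDCs too. The labels do not say whether libraries of a group came from separate mice, and p-values therefore measure only the spread between these libraries.

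Toll-like receptors recognise conserved microbial molecules and signal through adaptor proteins to NF-kappaB and interferon regulatory factors. TLR2 pairs with TLR1 to bind triacylated lipopeptides and with TLR6 to bind diacylated ones. TLR4 binds bacterial lipopolysaccharide together with MD-2, the product of Ly96, after CD14 has handed the ligand over. CD180 is a TLR4-like protein that pairs with MD-1, the product of Ly86, and TLR5 binds bacterial flagellin. Among mouse cDC subsets, cDC1 are known for high levels of the endosomal receptor TLR3.

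Tlr1 and Tlr6 are neighbours on chromosome 5 and share part of their transcript sequence. In GRCm38, Tlr1 lies at chr5:64924679-64933563 and Tlr6 at chr5:64952031-64960097, both on the minus strand and 18467 bp apart. The other members lie on different chromosomes or far apart, with Tlr2 at chr3:83836272-83841767 (minus strand), Tlr4 at chr4:66827584-66930284, Ly96 at chr1:16688051-16709611, Tlr5 at chr1:182954788-182976044 and Cd180 at chr13:102693558-102739629 (all plus strand). All 8 are protein-coding. Of the 3307 stretches of 75 bases in Tlr1 transcripts, 340 also occur in Tlr6. How reads shared by both genes were counted is not given, so the levels of this pair are uncertain to that extent. Tlr2, Tlr4, Ly96, Cd14 and Tlr5 shared no such stretch with another gene, and Cd180 shared 2.47%.

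Promoter windows are shown for Tlr1 and Tlr6, neighbours that moved to different extents below, and for Tlr2 and Tlr5. Each runs 5′ to 3′ from 250 bases before to 50 bases after a RefSeq start on GRCm38.p6. Windows of 5 of the 8 members were searched (Tlr1, Tlr2, Tlr6, Tlr5 and Cd180). Tlr4, Ly96 and Cd14 were not searched, so their promoters are not described here. Capitals mark CACCTG, a sequence that ZEB proteins are known to bind, and AGGAAGT, a core that PU.1-type factors are known to bind, each searched on both strands. Where a match is on the other strand its reverse complement is in capitals, CAGGTG for CACCTG. The windows are chr5:64933509-64933808 for Tlr1, chr5:64959999-64960298 for Tlr6, chr3:83841559-83841858 for Tlr2 (all minus strand) and chr1:182954538-182954837 for Tlr5 (plus strand). For Tlr1 and Tlr6 the upstream of the listed starts is shown.
Tlr1: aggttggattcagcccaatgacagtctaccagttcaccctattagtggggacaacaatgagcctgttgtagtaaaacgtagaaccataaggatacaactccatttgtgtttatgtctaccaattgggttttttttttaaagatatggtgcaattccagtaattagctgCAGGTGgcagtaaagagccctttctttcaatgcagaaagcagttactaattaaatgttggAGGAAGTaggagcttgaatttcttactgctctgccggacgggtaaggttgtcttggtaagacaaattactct
Tlr6: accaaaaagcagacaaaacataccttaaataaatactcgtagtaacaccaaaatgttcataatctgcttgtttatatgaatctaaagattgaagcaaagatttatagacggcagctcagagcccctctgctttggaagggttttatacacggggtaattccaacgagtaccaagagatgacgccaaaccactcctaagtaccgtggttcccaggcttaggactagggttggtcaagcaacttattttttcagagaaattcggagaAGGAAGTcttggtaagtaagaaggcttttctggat
Tlr2: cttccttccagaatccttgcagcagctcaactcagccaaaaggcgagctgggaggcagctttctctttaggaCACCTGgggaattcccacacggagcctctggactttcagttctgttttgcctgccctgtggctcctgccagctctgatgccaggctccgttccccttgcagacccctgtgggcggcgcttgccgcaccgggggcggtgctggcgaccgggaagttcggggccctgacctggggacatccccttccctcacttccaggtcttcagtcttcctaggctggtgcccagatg
Tlr5: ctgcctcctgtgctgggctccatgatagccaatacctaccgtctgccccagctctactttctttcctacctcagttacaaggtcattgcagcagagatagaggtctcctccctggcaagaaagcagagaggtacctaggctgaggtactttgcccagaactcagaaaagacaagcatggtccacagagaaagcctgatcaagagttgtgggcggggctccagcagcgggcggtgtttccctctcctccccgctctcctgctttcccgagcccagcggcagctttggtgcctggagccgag

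The Tlr1 window held both words, CACCTG at -82 and AGGAAGT at -22 from the start. The Tlr6 window held AGGAAGT at 15 bases past the start and no CACCTG. The Tlr2 window held CACCTG at -178, and the Tlr5 and Cd180 windows held neither. Over all 32851 mouse windows of this length, 20.2% held CACCTG and 9.35% held AGGAAGT, so either match is common and is a description of the letters only. The windows at the other listed starts held neither word for Tlr1 and AGGAAGT for Tlr6.

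Library totals ran from 21972763 to 36094786 counts, where 3 counts, taken as a floor, came to 0.0869 to 0.148 CPM, the counts scaled to library size. Zeb2, the targeted gene, stood at 44.3, 45.0, 46.2 and 41.3 CPM in transgene cDC1 against 3.25 and 2.36 CPM in their controls, and at 0.685, 0.457, 1.06 and 2.67 CPM in deletion cDC1 against 0.488 and 2.56 CPM. In cDC2 it stood at 151, 152, 148 and 159 CPM with the transgene against 104 and 104 CPM, and at 38.0, 41.4, 33.0 and 30.7 CPM with the deletion against 176 and 132 CPM. These are whole-gene counts, which include exons that Cre leaves in place. Summed cDC2 markers (9 genes) came to 2661 to 3557 CPM in cDC2 libraries, 336 to 571 CPM in transgene cDC1 and 88.1 to 149 CPM in the other cDC1 libraries. Summed cDC1 markers (9 genes) came to 695 to 1226 CPM in cDC2 libraries and 5314 to 10709 CPM in cDC1 libraries, with transgene cDC1 lowest at 5314 to 6804 CPM. The labelled subsets thus carried their own markers.

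**Figure D1:**
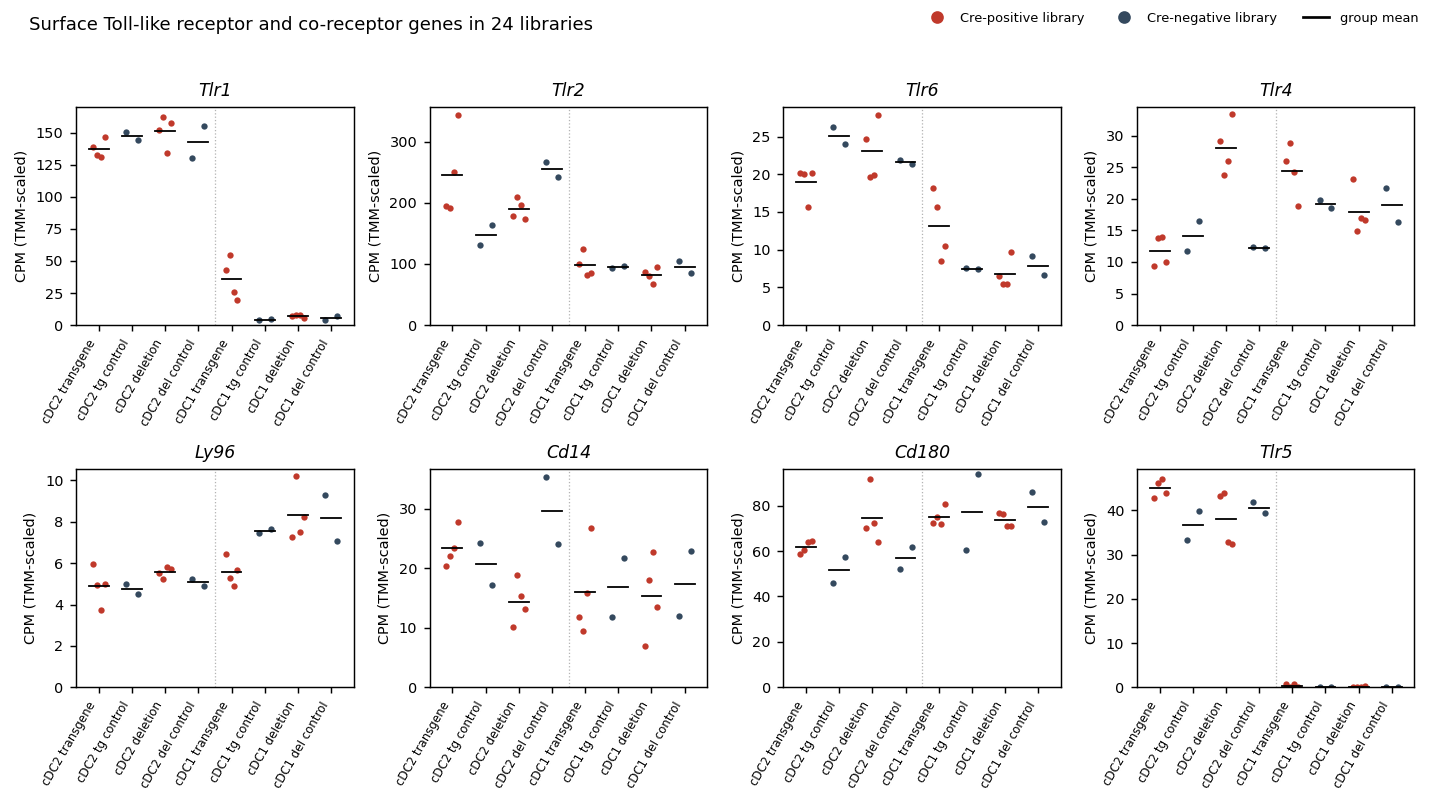
TMM-scaled CPM of the 8 genes (1 panel each, linear axis from 0) in every library of the 8 groups, cDC2 groups left of the dotted line and cDC1 groups right of it; "tg control" and "del control" are the Cre-negative groups, and bars are group means. Tlr1 separates the subsets and rises to 19.6 to 54.4 CPM in transgene cDC1, while Tlr4 is at 23.8 to 33.4 CPM in deletion cDC2 against 12.2 and 12.4 CPM in their controls.

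The first comparison set control cDC2 against control cDC1 to ask how the receptors differ between the subsets where Zeb2 is not manipulated. The TLR2 family and Tlr5 were higher in cDC2, and the genes of lipopolysaccharide recognition were lower or did not pass the test. Of the 8 members, 4 were higher, 3 were lower and 1 did not pass (edgeR quasi-likelihood test, Benjamini-Hochberg adjusted p under 0.05 over all genes). Among all genes 53.4% passed, 27.6% higher and 25.8% lower, so a call is common here. The median log2 fold change was 0.78 over the members and 0.05 over all genes. Here and below, fewer cells of a type and less RNA per cell cannot be told apart in bulk libraries.

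Tlr1, the partner of TLR2 for triacylated lipopeptides, was the member with the widest gap of those well measured in both subsets. It stood at 151, 144, 130 and 155 CPM in control cDC2 against 3.74, 4.48, 4.40 and 6.93 CPM in control cDC1, where transgene-line controls are named first and deletion-line controls next, as in the values that follow. No libraries overlapped, and Tlr1 was higher by 4.91 ± 0.24 on the log2 scale (SE, adjusted p = 6.81e-14, edgeR). Tlr6, the partner for diacylated lipopeptides, stood at 26.2, 24.0, 21.9 and 21.3 CPM in control cDC2 against 7.51, 7.48, 9.17 and 6.60 CPM in control cDC1. It was higher by 1.60 ± 0.21 (SE, log2, adjusted p = 8.85e-07, edgeR) with no overlap.

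Tlr2, the subunit shared by both pairs, stood at 131, 164, 266 and 242 CPM in control cDC2 against 94.2, 96.7, 105 and 86.0 CPM in control cDC1. All 4 cDC2 libraries were above all 4 cDC1 libraries, with a log2 fold change of 1.02 ± 0.16 (SE, adjusted p = 9.97e-06, edgeR). Tlr5, the flagellin receptor, summed to 4166 counts in the 4 control cDC2 libraries, at 33.3 to 41.8 CPM each, and to 5 counts in the 4 control cDC1 libraries. The ratio of these sums, scaled by library size, was 738, with a 95% exact counting interval of 316 to 2274 that covers counting error only. Among the 4 control cDC1 libraries 2 had no Tlr5 count and the other two had 1 and 4.

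The TLR2 partners were also set against each other per kilobase of exon. The per-length level of Tlr1 relative to Tlr6 was 6.41, 6.69, 6.63 and 8.09 in control cDC2 against 0.554, 0.667, 0.534 and 1.17 in control cDC1. The ratio was higher in all 4 cDC2 libraries, by 3.32 on the log2 scale (exact two-sided permutation test, p = 0.0286, the smallest that 4 against 4 allows, adjusted p = 0.167 over 10 ratio tests), so it did not pass after adjustment.

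The lipopolysaccharide receptor genes ran the other way. Ly96 (MD-2) stood at 5.0, 4.51, 5.23 and 4.92 CPM in control cDC2 against 7.47, 7.63, 9.32 and 7.06 CPM in control cDC1, with no overlap and a log2 fold change of -0.68 ± 0.16 (SE, adjusted p = 0.00106, edgeR). Tlr4 stood at 11.7, 16.4, 12.4 and 12.2 CPM in control cDC2 against 19.8, 18.5, 21.8 and 16.3 CPM in control cDC1. One cDC2 library, at 16.4 CPM, lay just above the lowest cDC1 library, at 16.3 CPM. The log2 fold change of -0.54 ± 0.17 (SE, adjusted p = 0.0105, edgeR) did not pass without replicate 1 of the deletion-line control cDC1 (adjusted p = 0.0576) or without replicate 1 of the transgene-line control cDC2 (adjusted p = 0.0615).

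Cd180, the receptor of the MD-1 complex, stood at 46.0, 57.6, 52.3 and 61.9 CPM in control cDC2 against 60.6, 93.8, 85.8 and 73.0 CPM in control cDC1. One cDC1 library, at 60.6 CPM, lay below the highest cDC2 library, and the fitted log2 fold change of -0.52 ± 0.12 passed (SE, adjusted p = 0.000682, edgeR). Cd14, the lipopolysaccharide carrier (chr18:36725067-36726798, minus strand), stood at 24.2, 17.3, 35.3 and 24.0 CPM in control cDC2 against 11.9, 21.7, 11.9 and 22.9 CPM in control cDC1. The ranges overlapped and the log2 difference of 0.54 (95% interval -0.13 to 1.20) did not pass (adjusted p = 0.166, edgeR).

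**Figure D2:**
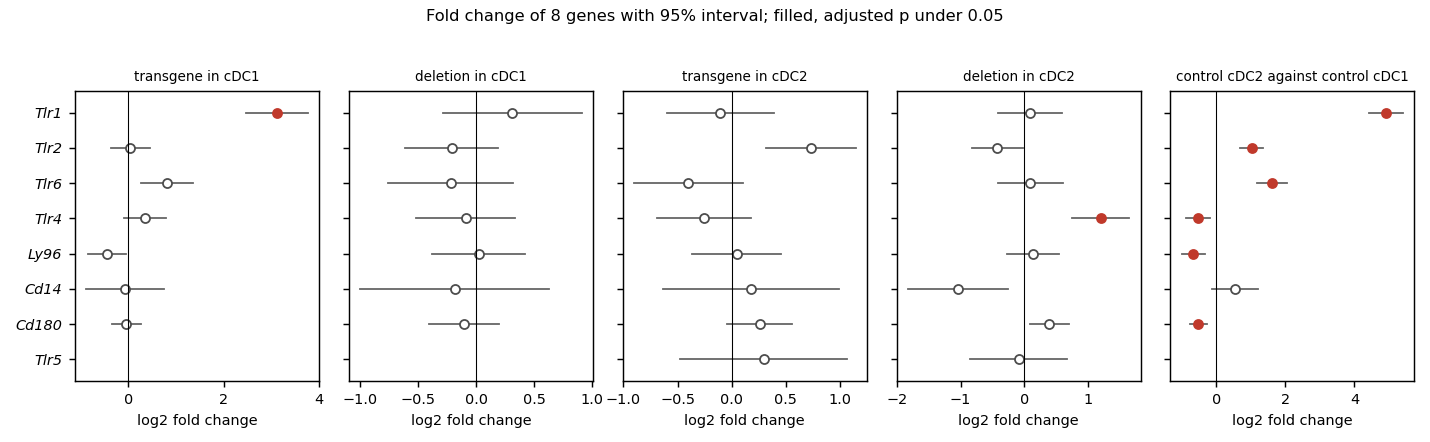
Log2 fold change (points) with its 95% interval (lines) of the 8 genes in the 4 Cre comparisons and between the control subsets, from the edgeR fit; filled points had an adjusted p under 0.05, and axes differ between panels. Tlr5 is left out where cDC1 enters, because its counts there are at or near 0; Tlr1 at 3.12 with the transgene in cDC1 and Tlr4 at 1.19 with the deletion in cDC2 are the filled points among the Cre comparisons.

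The next comparison set transgene cDC1 against their controls, a gain of Zeb2 in the subset where it is low. Tlr1 rose to 42.9, 54.4, 26.0 and 19.6 CPM in transgene cDC1, against 3.74 and 4.48 CPM in their controls. All 4 transgene libraries lay above both controls, and they spanned a wide range among themselves. The rise was 3.12 ± 0.31 on the log2 scale (SE, 95% interval 2.47 to 3.77, adjusted p = 5.16e-07, edgeR). It was the 1 member of 8 that passed, against 7.00% of all genes, 3.58% higher and 3.42% lower. The member median was 0.20 against 0.02 over all genes. An unadjusted p under 0.05 (edgeR) was found for 4 of the 8 members and for 2599 of the 13166 genes. Tlr5 was among these 4 and in the member median, on 21, 0, 20 and 0 counts against 0 and 1.

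Tlr6 stood at 18.1, 15.6, 8.49 and 10.4 CPM in transgene cDC1 against 7.51 and 7.48 CPM in their controls. All 4 libraries were above both controls, but the log2 difference of 0.81 ± 0.27 (SE) did not pass (adjusted p = 0.0694, edgeR). It passed with DESeq2 (adjusted p = 0.0304), without transgene replicate 3 (adjusted p = 0.0195, edgeR) and without transgene replicate 4 (adjusted p = 0.0437, edgeR). With a replicate block, a term for the replicate number within a line, it also passed (1.01, adjusted p = 0.00193, edgeR). The labels do not say what that number marks. The block joins Cre-positive and Cre-negative libraries, which came from different mice, and only replicates 1 and 2 have controls. Replicates 1 and 2, which had the most Tlr1, also had the most Tlr6.

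Tlr2 stood at 100, 125, 82.5 and 85.1 CPM in transgene cDC1 against 94.2 and 96.7 CPM in their controls. The controls lay inside the transgene range, and the log2 difference was 0.04 (95% interval -0.36 to 0.44). Per kilobase, Tlr2 was therefore 3.37 ± 1.06 times Tlr1 in transgene cDC1 (SD, n = 4) and 26.0 ± 2.9 times Tlr1 in their controls (SD, n = 2). The Tlr1 to Tlr6 ratio was 3.00 ± 0.79 in transgene cDC1 (SD, n = 4) and 0.610 ± 0.080 in their controls (SD, n = 2), with no overlap. Its exact permutation p of 0.0667 is the smallest that 4 against 2 libraries allows.

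**Figure D3:**
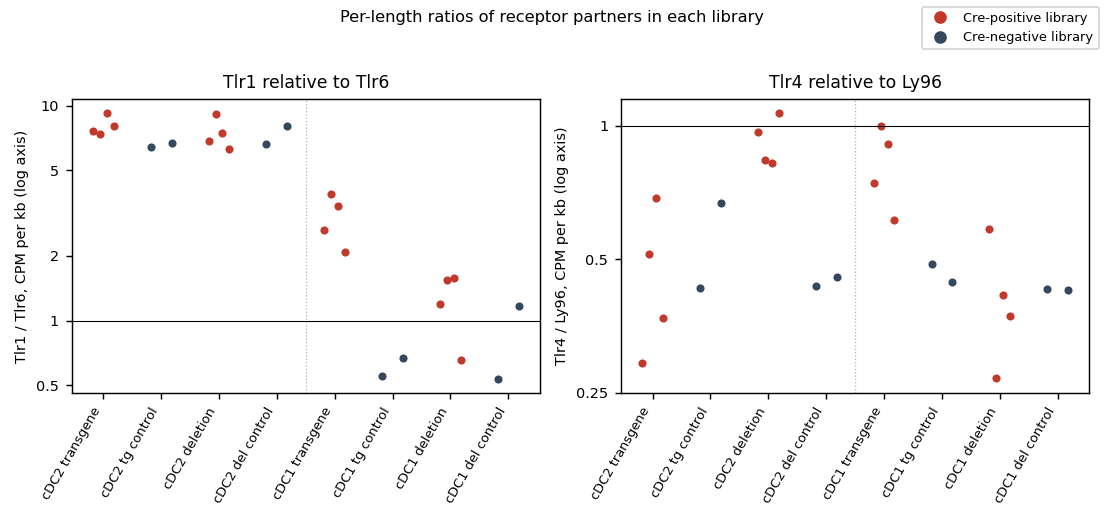
Ratio of CPM per kilobase between receptor partners in each library (log axis), Tlr1 over Tlr6 on the left and Tlr4 over Ly96 on the right, with cDC2 groups left of the dotted line in each panel. Tlr1 over Tlr6 is 6.31 to 9.30 in every cDC2 library and 2.09 to 3.88 in transgene cDC1, and Tlr4 over Ly96 is 0.822 to 1.07 in deletion cDC2.

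The rise of Tlr1 went part of the way to the cDC2 level. As a share of the mean of the 4 control cDC2 libraries (145 CPM), Tlr1 was at 29.6, 37.5, 17.9 and 13.5% in the transgene cDC1 libraries against 2.58 and 3.09% in their controls. Zeb2 was at 34.3, 34.8, 35.8 and 32.0% on the same scale in transgene cDC1, against 2.52 and 1.83% in their controls. Zeb2 was thus nearly level over the 4 transgene libraries, while Tlr1 varied.

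Tlr5 was listed at 21, 0, 20 and 0 counts in transgene cDC1, which is 1.96, 0, 2.01 and 0% of the control cDC2 mean, against 0 and 1 count in their controls. The summed ratio of 41 to 1 counts was 16.6, with a 95% exact counting interval of 2.82 to 671. That interval covers counting error only, not the spread between libraries. The groups overlapped at 0, and Tlr5 did not pass (adjusted p = 0.193, edgeR). Transgene replicate 2 had the most Tlr1 and no Tlr5 count. Summed cDC2 markers were at 571, 530, 378 and 336 CPM in transgene cDC1 against 95.2 and 88.1 CPM in their controls, with 7 of 9 higher and none at 0, and so were highest in replicates 1 and 2, where Tlr1 and Tlr6 were highest. Their part in the Tlr1 values was not tested. Summed monocyte markers were at 571 to 719 CPM in transgene cDC1 against 277 and 517 CPM, and at 486 to 614 CPM in deletion cDC1. Of the 12 tested, 5 were higher with the transgene and 7 did not pass. Vcan was at 0 in every cDC1 group. For both marker lists, 3.58% of all genes were higher in this comparison.

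**Figure D4:**
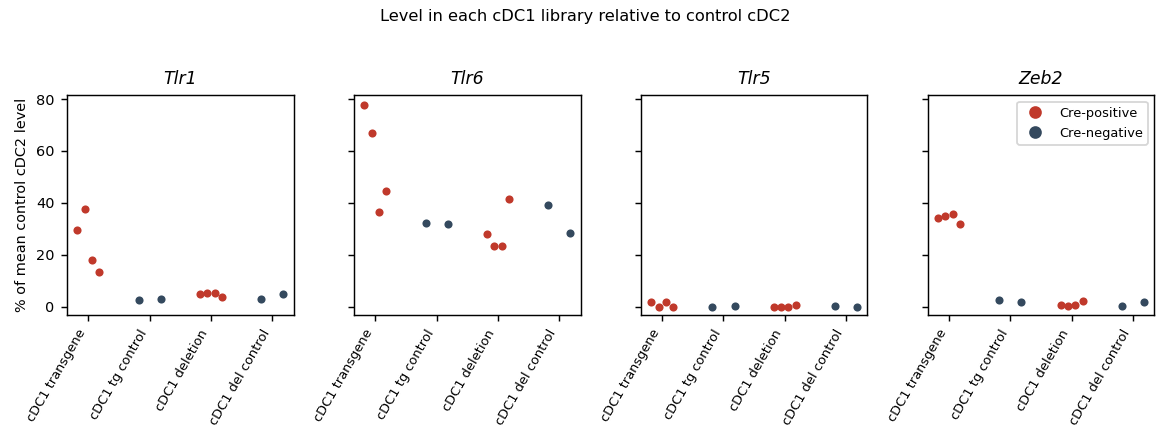
Level of Tlr1, Tlr6, Tlr5 and Zeb2 in each cDC1 library as a percentage of the mean of the 4 control cDC2 libraries (1 point per library). In transgene cDC1, Tlr1 is at 13.5 to 37.5% and Zeb2 at 32.0 to 35.8%, while Tlr5 is at 2.01% or less.

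The lipopolysaccharide receptor genes did not pass in transgene cDC1. Ly96 stood at 6.43, 5.30, 4.88 and 5.65 CPM against 7.47 and 7.63 CPM in the controls, below both in all 4 libraries, with a log2 difference of -0.44 (adjusted p = 0.199, edgeR). Tlr4 stood at 26.0, 28.8, 24.2 and 18.8 CPM in transgene cDC1 against 19.8 and 18.5 CPM, and Cd14 at 11.8, 9.41, 15.9 and 26.7 CPM against 11.9 and 21.7 CPM, with overlap in both genes. Cd180 stood at 72.1 to 80.6 CPM in transgene cDC1 inside the control range of 60.6 to 93.8 CPM. The log2 differences were 0.35 (95% interval -0.08 to 0.79) for Tlr4, -0.06 (-0.88 to 0.75) for Cd14 and -0.04 (-0.34 to 0.26) for Cd180.

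Transgene cDC2 were set against their controls to ask what added Zeb2 does where it is already high. None of the 8 members passed with edgeR, against 0.327% of all genes. An unadjusted p under 0.05 (edgeR) was found for 1 member and for 1144 of the 13166 genes, and 1 member passed with DESeq2. In either case it was Tlr2, which stood at 195, 191, 251 and 343 CPM in transgene cDC2 against 131 and 164 CPM in their controls. All 4 libraries were above both controls, with a log2 difference of 0.73 ± 0.20 (SE, adjusted p = 0.142, edgeR, and 0.0294, DESeq2). Replicates 3 and 4 were highest, and they also had the most of a 19-gene early response list chosen after the data were seen (Fos, Jun, Egr1 and related genes), which summed to 25559, 27416, 40195 and 37326 CPM in transgene replicates 1 to 4 against 25864 and 24870 CPM in the controls. Its part in the Tlr2 values was not tested.

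Tlr1 did not pass with the transgene in cDC2, at 139, 132, 131 and 146 CPM against 151 and 144 CPM in the controls (log2 difference -0.11, 95% interval -0.60 to 0.39). Whether the Cre effect on a gene differed between the subsets was tested as an interaction, the effect in cDC2 minus that in cDC1, which 2.01% of all genes passed in the transgene line, 0.820% higher and 1.18% lower. For Tlr1 it was -3.23 ± 0.38 on the log2 scale (SE, adjusted p = 2.53e-05, edgeR), and it was the 1 member that passed. Tlr6, at 15.7 to 20.2 CPM in transgene cDC2 against 24.0 and 26.2 CPM in their controls, differed by -1.21 (adjusted p = 0.0878, edgeR). It passed with DESeq2 (adjusted p = 0.0344) and with the replicate block (-1.16, adjusted p = 0.0108, edgeR). Cd180 stood at 58.6 to 64.2 CPM in transgene cDC2 against 46.0 and 57.6 CPM, and Tlr5 at 42.7 to 47.0 CPM against 33.3 and 39.8 CPM. Neither passed.

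Deletion cDC2 were set against their controls, a loss of Zeb2 in the subset where it is high. Tlr4 rose to 29.1, 23.8, 26.0 and 33.4 CPM in deletion cDC2, against 12.4 and 12.2 CPM in their controls. All 4 deletion libraries lay above both controls, and above all 8 other cDC2 libraries. The rise was 1.19 ± 0.22 on the log2 scale (SE, 95% interval 0.74 to 1.65, adjusted p = 0.00163, edgeR). Without control replicate 1 the log2 value was 1.20 and its adjusted p, 0.05005, just missed the threshold. Tlr4 was the 1 member of 8 that passed, against 5.21% of all genes, 2.33% higher and 2.88% lower. The member median was 0.09 against 0.01 over all genes. An unadjusted p under 0.05 (edgeR) was found for 4 of the 8 members and for 2343 of the 13166 genes.

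The deletion left Tlr4 in cDC2 at or above its level in control cDC1, which was 16.3 to 21.8 CPM. In deletion cDC1 Tlr4 stood at 23.1, 15.0, 16.9 and 16.6 CPM against 21.8 and 16.3 CPM in their controls. The Cre effect on Tlr4 was greater in cDC2 than in cDC1 by 1.28 ± 0.29 (SE, log2, interaction, adjusted p = 0.0333, edgeR), where 1.08% of all genes passed, 0.585% higher and 0.494% lower. It did not pass in 7 of the 12 fits that left out 1 of its libraries, which were those without deletion cDC2 replicate 1 (adjusted p = 0.0590) or 4 (0.0590), cDC2 control replicate 1 (0.222) or 2 (0.0892), deletion cDC1 replicate 2 (0.0550) or 4 (0.0613), or cDC1 control replicate 1 (0.225). Its log2 value ran from 1.07 to 1.46 over the 12.

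Ly96, whose product TLR4 needs to bind lipopolysaccharide, did not pass. It stood at 5.54, 5.23, 5.80 and 5.73 CPM in deletion cDC2 against 5.23 and 4.92 CPM in their controls, each deletion library above both controls by a small margin, with a log2 difference of 0.14 (95% interval -0.27 to 0.55). Per kilobase, Tlr4 relative to Ly96 was 0.924 ± 0.117 in deletion cDC2 (SD, n = 4) and 0.445 ± 0.015 in their controls (SD, n = 2). The groups did not overlap, and the exact permutation p of 0.0667 is the smallest that 4 against 2 libraries allows.

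Cd14 stood at 10.1, 18.9, 15.4 and 13.2 CPM in deletion cDC2 against 35.3 and 24.0 CPM in their controls, opposite to Tlr4. All 4 libraries were below both controls, but the log2 difference of -1.04 ± 0.38 (SE) did not pass (adjusted p = 0.126, edgeR). It passed in a fit of the compared libraries alone (-1.05, adjusted p = 0.0168, edgeR) and with the replicate block (-1.31, adjusted p = 0.0348, edgeR). The limits given above for that block hold here too. Summed monocyte markers (13 genes) came to 1681 to 2036 CPM in deletion cDC2 and 3644 to 4335 CPM in their controls. Of the 12 tested, 5 were lower and 7 did not pass, where 2.88% of all genes were lower. The list median was -0.19 (log2). Lyz2, a monocyte and macrophage lysozyme in that sum, was at 442 to 712 CPM in deletion cDC2 against 1931 and 2394 CPM. The part of these markers in the Cd14 values was not tested.

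Tlr2 stood at 179, 210, 197 and 174 CPM in deletion cDC2 against 266 and 242 CPM in their controls, below both in all 4 libraries, with a log2 difference of -0.42 (adjusted p = 0.234, edgeR). It passed in a fit of the compared libraries alone (-0.43, adjusted p = 0.0489). Cd180 stood at 70.1, 91.7, 72.6 and 64.1 CPM against 52.3 and 61.9 CPM, above both controls in all 4 libraries, with a log2 difference of 0.39 that did not pass (adjusted p = 0.147, edgeR). Tlr1 at 134 to 162 CPM against 130 and 155 CPM, Tlr6 at 19.7 to 27.8 CPM against 21.3 and 21.9 CPM and Tlr5 at 32.4 to 43.9 CPM against 39.3 and 41.8 CPM overlapped their controls. None of these 3 passed.

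A few markers of other cells passed in deletion cDC2, and they are given here because macrophages and B cells can carry Tlr4. Red pulp macrophage markers (14 genes) summed to 587 to 1087 CPM in deletion cDC2 and 731 to 767 CPM in their controls. Slc40a1 and Fcna were higher and the other 12 did not pass (list median 0.27, log2). For this and the B cell list, 2.33% of all genes were higher. Slc40a1 was at 34.0, 136, 213 and 148 CPM in deletion cDC2 replicates 1 to 4 against 20.4 and 49.3 CPM in the controls. In the same replicates Tlr4 was at 29.1, 23.8, 26.0 and 33.4 CPM, and the part of these markers in the Tlr4 values was not tested. Among 9 tested B cell markers Ms4a1 and Fcrla were higher and 7 did not pass (list median 0.085, log2). Ms4a1 was at 163 to 212 CPM in deletion cDC2 against 12.1 and 22.5 CPM, whereas Cd79a, a B cell receptor chain gene, was at 0.594 to 7.62 CPM against 3.43 and 6.46 CPM and did not pass.

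Deletion cDC1, where Zeb2 is low to begin with, gave no call. None of the 8 members passed with edgeR or DESeq2, and 0.0228% of all genes passed with edgeR. No member had an unadjusted p under 0.05 (edgeR), where 633 of the 13166 genes did. Tlr1 stood at 6.97, 7.57, 7.76 and 5.69 CPM in deletion cDC1 against 4.40 and 6.93 CPM in their controls, a log2 difference of 0.31 (95% interval -0.29 to 0.91). Tlr2 stood at 67.9 to 95.5 CPM against 86.0 and 105 CPM, Tlr6 at 5.45 to 9.70 CPM against 6.60 and 9.17 CPM, and Ly96 at 7.27 to 10.2 CPM against 7.06 and 9.32 CPM. Cd14 stood at 7.01 to 22.8 CPM against 11.9 and 22.9 CPM, and Cd180 at 71.1 to 76.8 CPM against 73.0 and 85.8 CPM. Every one of these ranges overlapped its controls, and Tlr5 had 0, 0, 0 and 5 counts against 4 and 0.

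The controls of the 2 lines were also set against each other, transgene line over deletion line. None of the 8 members passed in cDC1 with edgeR or DESeq2 (0.129% of all genes passed, 0.0456% higher and 0.0835% lower). No member had an unadjusted p under 0.05 (edgeR) in cDC1, where 948 of the 13166 genes did. None passed in cDC2 with either tool, and 0.137% of all genes passed, 0.0835% higher and 0.0532% lower. An unadjusted p under 0.05 (edgeR) was found in cDC2 for 1 member and for 1203 of the 13166 genes. That member was Tlr2, at 131 and 164 CPM in transgene-line control cDC2 against 266 and 242 CPM in deletion-line control cDC2, a log2 difference of -0.79 (adjusted p = 0.257, edgeR). The early response list summed to 25864 and 24870 CPM in the transgene-line controls and 38619 and 35704 CPM in the deletion-line controls of cDC2, with a median log2 difference of -0.51 over its 19 genes against -0.01 over all genes. None of the 19 passed with edgeR or DESeq2, 7 had an unadjusted p under 0.05, and the list's part in the Tlr2 difference was not tested. The transgene-line controls, against which Tlr2 was higher in transgene cDC2, were thus the lower pair, and the deletion-line controls, against which it was lower in deletion cDC2, the higher.

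The order of the groups differed by gene. Tlr1 was ordered as the 4 cDC2 groups (means of 137 to 151 CPM, ranges overlapping), then transgene cDC1 (35.7 ± 15.9 CPM, SD, n = 4, apart from both neighbours) and the other 3 cDC1 groups (means of 4.11 to 6.997 CPM). Tlr6 ran from the transgene-line control cDC2 (25.1 ± 1.6 CPM, SD, n = 2) through deletion cDC2 and their controls to transgene cDC2 (19.0 ± 2.2 CPM, SD, n = 4) and transgene cDC1 (13.2 ± 4.5 CPM, SD, n = 4), and the last pair overlapped. Tlr2 was higher in every cDC2 library (131 CPM or more) than in any cDC1 library (125 CPM or less). Tlr4 was highest in deletion cDC2 (28.1 ± 4.1 CPM, SD, n = 4), next in transgene cDC1 (24.4 ± 4.2 CPM, SD, n = 4) and lowest in transgene cDC2 (11.8 ± 2.4 CPM, SD, n = 4), with each neighbour in that order overlapping the next. Ly96 was higher in the cDC1 groups other than transgene cDC1 (7.55 to 8.31 CPM) than in the remaining groups (4.76 to 5.57 CPM), and those sets did not overlap. Cd14 had overlapping neighbours all the way from deletion-line control cDC2 (29.6 ± 8.0 CPM, SD, n = 2) to deletion cDC2 (14.4 ± 3.7 CPM, SD, n = 4).

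Cd14 varied between libraries of the cDC1 groups, and so did the early response list, whose part in the Cd14 values was not tested. In transgene cDC1 replicates 1 to 4, Cd14 was at 11.8, 9.41, 15.9 and 26.7 CPM and the list summed to 14326, 13181, 19766 and 17667 CPM. In deletion cDC1 replicates 1 to 4, Cd14 was at 7.01, 18.1, 22.8 and 13.5 CPM and the list summed to 16564, 28127, 26154 and 20935 CPM. In the transgene-line control cDC1, Cd14 was at 11.9 and 21.7 CPM and the list at 13796 and 20049 CPM. None of the 19 list genes passed in transgene or deletion cDC1 with edgeR or DESeq2. None had an unadjusted p under 0.05 (edgeR) in these comparisons, where 2599 and 633 of the 13166 genes did. In both Cre-positive groups the lowest Cd14 and the lowest list sum fell in the same replicate, and the highest of each in different replicates. In deletion-line control cDC1 the list was nearly level, at 21690 and 21920 CPM, while Cd14 was at 11.9 and 22.9 CPM.

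Genes whose group profile was most like that of each member were found by the smallest root-mean-square difference of centred log2 CPM over the 8 groups, among 9315 candidates (9316 for Tlr5). For Tlr1 these were Apobec1 (0.15), Cd300lf (0.28) and Lair1 (0.30), beside a spread of the Tlr1 profile itself of 2.35 (SD over groups). For Tlr5 they included the RNA sensor gene Tlr7 (0.58) and Cyp4f37 (0.69), beside a spread of 4.39. For Tlr4 they were Plac8 (0.24), Hyal2 (0.24) and 2410006H16Rik (0.25), beside a spread of 0.45, so the likeness is loose. Tlr6 was most like BC147527 (0.11), Tlr2 like Adrbk2 (0.18), Ly96 like Rbpj (0.07), Cd14 like Ajuba (0.18) and Cd180 like Trim30d (0.06).

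Genes around the receptors were then counted from pathway lists. Among 7 tested genes for receptor partners and ligand transfer, control cDC2 had 5 higher and 2 lower than control cDC1 (list median 0.47, all genes 0.05, log2). For this and the next lists, 27.6% of all genes were higher and 25.8% lower in this comparison. Cd36, a scavenger receptor that assists TLR2 with TLR6, was at 11.8 CPM in control cDC2 and 779 CPM in control cDC1, a log2 fold change of -6.15 ± 0.18 (SE, adjusted p = 9.71e-18, edgeR). Itgam, the CD11b integrin chain, ran the other way at 157 and 2.92 CPM (log2 fold change 5.77, adjusted p = 1.34e-12, edgeR). Ly86, which encodes the MD-1 partner of CD180, was higher by 0.47 (log2, adjusted p = 0.000112, edgeR) where Cd180 itself was lower.

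Receptor chaperones and carriers had 2 higher and 4 lower of 9 in control cDC2 (list median -0.12). Hsp90b1, which encodes the gp96 chaperone that surface Toll-like receptors need to fold, was at 259 CPM in control cDC2 and 786 CPM in control cDC1 (log2 fold change -1.60, adjusted p = 1.63e-11, edgeR). Cnpy3, its co-chaperone for these receptors, was higher by 0.41 (adjusted p = 0.000393, edgeR). Rab11a, a recycling endosome GTPase, was lower by a log2 value of -1.31 (adjusted p = 1.49e-12, edgeR). In the Cre comparisons none of the 9 passed with edgeR, and DESeq2 called 1 with the transgene in cDC1 and none in the others. Per comparison 1 or 2 had an unadjusted p under 0.05 (edgeR), where 633 to 2599 of the 13166 genes did.

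Adaptors and kinases had 11 higher and 4 lower of 20 in control cDC2 (list median 0.26). Ticam2, which encodes the TRAM adaptor that couples TLR4 to interferon signalling, was at 114 CPM in control cDC2 and 4.37 CPM in control cDC1 (log2 fold change 4.72, adjusted p = 2.82e-15, edgeR). Ticam1, the TRIF adaptor that TRAM recruits, was lower, at 14.6 CPM in control cDC2 and 28.2 CPM in control cDC1. Nfkb1 was higher by 2.66, Irak4 by 0.70 and Myd88, the common adaptor of the surface receptors, by 0.23, while Irf5 was lower at -0.81 (log2, adjusted p from 2.25e-15 to 0.0161, edgeR). With the transgene Ticam2 did not pass in cDC1, at 3.30 to 7.96 CPM in transgene cDC1 against 3.17 and 4.23 CPM in their controls.

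Negative regulators had 10 higher and 2 lower of 13 in control cDC2 (list median 0.42). Irak3, an inhibitory IRAK kinase, was higher by 2.48 and Tnfaip3, which encodes the A20 inhibitor of NF-kappaB, by 1.23, while Sarm1, an inhibitory adaptor, was lower at -2.91 (log2, adjusted p from 1.05e-09 to 5.72e-05, edgeR). Induced targets had 6 higher and 1 lower of 14 (list median 0.74). Ptgs2, the inducible cyclooxygenase gene, was at 1663 CPM in control cDC2 and 16.4 CPM in control cDC1, and Il12b, an interleukin-12 subunit gene, at 7.24 and 72.6 CPM. The mice were untreated, and the values were taken after tissue digestion and sorting. The part of that handling in these levels was not tested.

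With the transgene in cDC1, 2 of 7 partner genes, 1 of 20 adaptors and kinases, 1 of 13 negative regulators and 2 of 14 induced targets were higher, and none of these was lower, where 3.58% of all genes were higher and 3.42% lower. The single calls among adaptors and among negative regulators are near that background. Itgam was at 27.2 CPM in transgene cDC1 and 3.42 CPM in their controls (log2 fold change 2.96, adjusted p = 5.21e-05, edgeR). Ly86 was higher by 0.42, Myd88 by 0.41 and Lyn, a kinase with inhibitory roles, by 0.36 (log2, adjusted p from 0.00831 to 0.0331, edgeR). The chemokine gene Ccl3 was higher by 1.92 and Ptgs2 by 2.12. Of 7 intracellular or other Toll-like receptor genes, Tlr7 was higher, at 2.77 CPM in transgene cDC1 and 0.174 CPM in their controls, and Tlr3, Tlr11 and Tlr12, which mark cDC1, were lower at -1.20, -0.75 and -0.71 (log2, adjusted p from 0.000108 to 0.0427, edgeR).

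**Figure D5:**
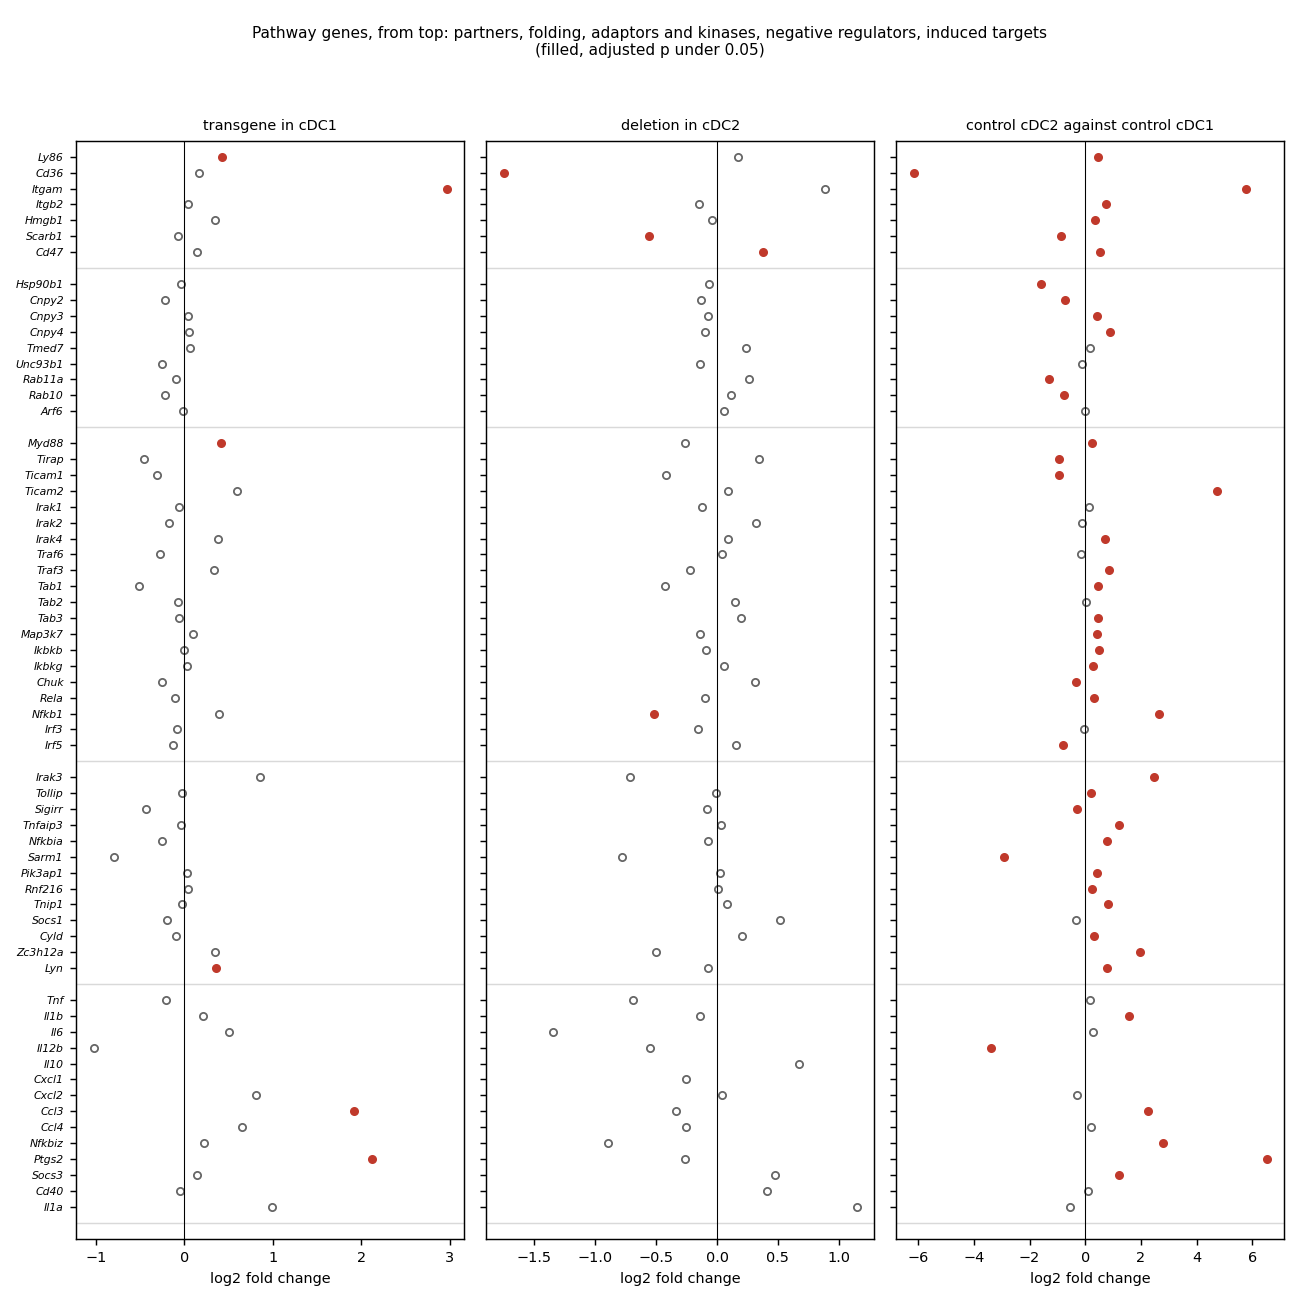
Log2 fold change of pathway genes (rows, grouped by list from top to bottom as named in the title) with the transgene in cDC1, with the deletion in cDC2 and between the control subsets; filled points had an adjusted p under 0.05, axes differ between panels, and genes with a group mean under 3 counts in the shallowest library are left blank. Most rows are filled between the control subsets (Ticam2 at 4.72, Cd36 at -6.15), and few with either Cre allele.

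With the deletion in cDC2, 1 of 7 partner genes was higher and 2 were lower, and 1 of 20 adaptors and kinases was lower, where 2.33% of all genes were higher and 2.88% lower. Cd36 was at 4.86 CPM in deletion cDC2 and 16.4 CPM in their controls (log2 fold change -1.75, adjusted p = 3.78e-06, edgeR), Scarb1, another scavenger receptor, was lower at -0.56 and Cd47 was higher by 0.38. Nfkb1 was lower at -0.52 (adjusted p = 0.0127, edgeR). Itgam was at 300 to 312 CPM in deletion cDC2 against 162 and 169 CPM, a log2 difference of 0.89 that did not pass (adjusted p = 0.133, edgeR). None of the 13 negative regulators or the 14 induced targets passed with edgeR or DESeq2. In each list 1 had an unadjusted p under 0.05 (edgeR), where 2343 of the 13166 genes did. Tlr3 was higher by 0.78 (adjusted p = 0.0436, edgeR), at 9.69 CPM in deletion cDC2 and 5.65 CPM in their controls.

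With the transgene in cDC2, 2 of 14 induced targets passed, the chemokine genes Ccl3 and Ccl4, where 0.114% of all genes were higher and 0.213% lower. Ccl3 was at 205 CPM in transgene cDC2 and 43.2 CPM in their controls (log2 fold change 2.25, adjusted p = 0.000595, edgeR), and Ccl4 was higher by 2.12 (adjusted p = 0.0151, edgeR). The list median of 1.67 stood against 0.01 over all genes. Between the line controls of cDC2, transgene line over deletion line, the list median was -1.12 against -0.01 over all genes. Ccl3 was also lower in transgene-line than in deletion-line control cDC2, at 43.2 and 171 CPM (log2 fold change -1.98, adjusted p = 0.0117, edgeR), the same pair of controls in which Tlr2 was lowest among the cDC2 groups. With the deletion in cDC1 no gene of the 6 pathway lists passed with edgeR or DESeq2. In the folding, adaptor and negative regulator lists 4 genes had an unadjusted p under 0.05 (edgeR), where 633 of the 13166 genes did.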

How the data were processed

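Per the labels' protocols, 4 ng of RNA per sample was amplified with SMART-Seq v4, and libraries had a 15-cycle PCR, 250 bp inserts and 75 bp reads. Per the submitters' processing notes, the tools were FastQC 0.11.4, Trimmomatic 0.35, TopHat2 2.1.0 and SAMtools 0.1.18, with genome build mm10. The files deposited by the authors hold unscaled whole-number counts per gene symbol. Which program counted the reads, on which annotation and whether by strand is not given in the sources used here, so reads of a gene and an antisense or overlapping partner cannot be told apart. The 5 lines of unassigned reads stayed out of totals and tests, and reads in no feature came to 10.4 to 15.7%.

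Groups came from the labels. The 8 genes and all lists were chosen with earlier results of these data known. In R 4.3.3, edgeR 4.0.16 kept genes by filterByExpr (minimum count 10, total 15), scaled by TMM (0.925 to 1.07) and fitted 8 group means to all 24 libraries with a quasi-likelihood test. The p-values were Benjamini-Hochberg adjusted over 13166 genes (threshold 0.05). Principal component 1 of log2 CPM held 63.5% of the variance, and all replicates differed by more than sampling noise (chi-square per gene 10.1 to 51.1). CPM values are TMM-scaled. Per-kilobase levels divide by the exon length of GENCODE M21, GRCm38. Intervals are at 95%, and the floor is 3 counts. The edgeR procedure was tested on simulated counts. Named genes were the 8, Zeb2, up to 4 passing genes per list and comparison with the smallest p, and the 3 most alike profiles per member (average log2 CPM at least 2). Pathway genes named outside that rule, and the marker genes given with values, were chosen after their values were seen. A gene that the naming rule picked and a marker gene are not reported here. Alternatives were DESeq2 1.42.0, its size factors, no filter or a stricter one (5 CPM in 4 libraries), the compared libraries alone, a replicate block and leaving out each library.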

Additional observations from a re-analysis of the deposited data

Results flagged for a closer look

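Dixon's gap test at 95% was applied to the 8 genes in the groups of 4 libraries, 32 in all, and marked 2, where chance marks about 1 in 20. Tlr6 in transgene cDC2 replicate 3, at 15.7 CPM, lay below the other three at 20.0 to 20.2 CPM. Tlr5 in deletion cDC1 replicate 4, at 0.216 CPM (5 counts), lay above the other three at 0 counts, where any count at all would have been marked, so this mark says nothing about that library.

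The Cre effect differed between subsets for 2 genes by the interaction test, cDC2 minus cDC1. For Tlr1 in the transgene line the difference was -3.23 on the log2 scale (adjusted p = 2.53e-05, edgeR). For Tlr4 in the deletion line it was 1.28 (adjusted p = 0.0333, edgeR).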

How the results depend on the processing

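Counts of passing genes changed by over 1.5 times as follows, and the cause was not tested. DESeq2 called 7 genes with the deletion in cDC1 (edgeR 3), 119 with the transgene in cDC2 (43), 336 and 475 in the deletion and transgene interactions (142 and 264), and 53 and 70 between the line controls of cDC1 and cDC2 (17 and 18). Fitting the compared libraries alone gave 1 for the deletion in cDC1, 550 for the transgene in cDC1 (922), and 6 and 85 for the line controls of cDC1 and cDC2. Without a low-count filter the transgene in cDC2 had 71 and the cDC2 line controls 30. Of the 8 members, the deletion in cDC2 had 3 (Tlr4, Cd14, Tlr2) and the cDC2 line controls 1 (Tlr2, -0.77, adjusted p = 0.0459) with the compared libraries alone. DESeq2 called 2 with the transgene in cDC1 (Tlr1, Tlr6), 2 in the transgene interaction (Tlr1, Tlr6) and 1 with the transgene in cDC2 (Tlr2). Tlr2 between the cDC1 line controls, not past the test in any fit, was -0.00384 with edgeR and turned positive at 0.00197 (DESeq2), 0.00183 (its size factors) and 0.00579 (no filter). Tlr1 with the transgene in cDC1 passed in every alternative run, and Tlr4 with the deletion in cDC2 in all but the one named with its result.

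The labels give both subsets the same replicate numbers, but do not say what a number marks. Deviations of same-numbered cDC1 and cDC2 libraries correlated at 0.101 to 0.111 in transgene, 0.0352 in transgene-line control, 0.0764 to 0.170 in deletion and -0.00779 in deletion-line control libraries, so the numbers were not taken as pairs. All but the deletion-line controls correlated best with their own number, so whether the numbers mark pairs was not settled, and the main fit leaves them out. A replicate block within line gave 69 genes with the transgene in cDC2, and 2 members in the transgene interaction (Tlr6 at -1.16), 2 with the transgene in cDC1 (Tlr6 at 1.01, adjusted p = 0.00193) and 2 with the deletion in cDC2 (Cd14 at -1.31). It turned the sign of members that passed in neither fit, giving -0.13 for Cd14, 0.17 for Tlr1 with the transgene in cDC2, -0.00520 for Tlr2 with the transgene in cDC1, 0.061 for Tlr5 and -0.020 for Tlr6 with the deletion in cDC2. It cannot estimate the line controls. This block joins Cre-positive and Cre-negative libraries of different mice, and not every number has a control. A block within line and Cre, chosen after seeing the data, gave 400 genes and 2 members in the transgene interaction.

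With 1 library left out at a time, counts of passing genes ran from 142 to 673 for the deletion in cDC2 (142 without control replicate 1, 349 without control replicate 2, 686 with all), 476 to 982 for the transgene in cDC1 (476 and 584 without control replicates 2 and 1) and 18 to 45 for the transgene in cDC2 (18 and 21 without control replicates 2 and 1). They ran from 1 to 4 for the deletion in cDC1 (1 without control replicate 2), 8 to 12 and 9 to 12 for the line controls of cDC1 and cDC2 (fewest without either deletion-line control), 21 to 161 for the deletion interaction (21 without cDC2 control replicate 1, 51 and 61 without cDC1 control replicates 1 and 2, 90 without deletion cDC1 replicate 1) and 138 to 335 for the transgene interaction (138 and 173 without cDC2 control replicates 1 and 2, 140 without cDC1 control replicate 2). Members passing ran from 0 to 1 for the deletion in cDC2 and its interaction, and from 1 to 2 for the transgene in cDC1 and its interaction. Log2 values that changed sign, none past the test, ranged as follows. With the deletion in cDC1 they were -0.59 to 0.38 for Cd14, -0.20 to 0.00859 for Cd180, -0.15 to 0.23 for Ly96, -0.27 to 0.12 for Tlr4, -4.12 to 3.55 for Tlr5 and -0.44 to 0.031 for Tlr6. With the deletion in cDC2 they were -0.036 to 0.21 for Tlr1 and -0.012 to 0.16 for Tlr6, and with the transgene in cDC1 -0.44 to 0.43 for Cd14, -0.31 to 0.31 for Cd180 and -0.096 to 0.12 for Tlr2. With the transgene in cDC2 they were -0.052 to 0.43 for Cd14, -0.060 to 0.16 for Ly96 and -0.49 to 0.00874 for Tlr4. Between line controls in cDC1 they were -0.55 to 0.50 for Cd14, -0.38 to 0.24 for Cd180, -0.29 to 0.090 for Ly96, -0.13 to 0.14 for Tlr2, -0.17 to 0.22 for Tlr4, -4.12 to 2.48 for Tlr5 and -0.27 to 0.18 for Tlr6, and in cDC2 -0.31 to 0.019 for Cd180, -0.069 to 0.18 for Tlr1 and -0.070 to 0.43 for Tlr4. In the deletion interaction they were -0.095 to 0.28 for Ly96, -0.60 to 0.077 for Tlr1 and -3.65 to 4.03 for Tlr5, and in the transgene interaction -0.26 to 0.61 for Cd14 and -0.062 to 0.56 for Cd180. Tlr5 in cDC1 rests on 0 to 21 counts per library.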
